A study of Mus musculus with 23 samples.

Results

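The genes described here are the ligands and receptors of the TNF superfamily that carry a Tnfsf or Tnfrsf symbol, measured by RNA sequencing in quadriceps muscle and epididymal fat of mice with or without a pancreatic tumor. They were found by symbol, as Tnfsf or Tnfrsf followed by a number, or Tnf itself. Of the 12831 genes listed for quadriceps 14 met this rule, 12 receptors and 2 ligands, and of the 16962 listed for fat 26 did, 17 receptors and 9 ligands. All 14 muscle members were also listed in fat. Neither table had a row named Tnf, so TNF itself was not analysed here. Members with other symbols, such as Fas, Cd40 and Eda2r, were kept as a separate list.

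No tumor mice had sham surgery, KPC mice received cells of a mouse pancreatic cancer line in the pancreas, and KPC IL6KO mice received a clone of the same line in which Il6 had been edited with CRISPR/Cas9. The KPC line was derived from a mouse pancreatic tumor, and the control KPC cells had been through transfection without an Il6 guide. Each tumor genotype was 1 clone. All hosts were male C57BL/6J mice operated on at 8 weeks of age, and their own Il6 gene was intact in every group, so that the host tissue counts do not check the edit. Quadriceps was taken from 3 mice without tumor and from 4 of each tumor group, and fat from 4 per group, with sample codes that do not recur between the tissues, 1 library each. The authors had removed 1 further no tumor muscle sample as an outlier, which was not analysed here. The comparisons ask how a tumor, and the Il6 gene of its cells, bear on the transcripts of muscle and fat. The paper reports larger tumors in KPC than in KPC IL6KO mice, and no correlation of tumor mass with muscle or fat pad mass. Between the tumor groups, the Il6 gene, the clone and the tumor mass cannot be told apart here.

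TNF superfamily ligands are trimeric proteins, held in the cell membrane or shed by proteases, and their receptors assemble around them. Receptors of the family signal through TRAF adaptors to NF-kB and MAP kinases, and those with a death domain can also start cell death. In skeletal muscle the ligand TWEAK and its receptor Fn14 are known for their part in wasting after denervation or disuse. In adipose tissue, TNF signaling is known for opposing insulin action and for promoting lipolysis, and many other members are best known from lymphocytes.

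Counts summed to between 19259763 and 74907810 per quadriceps library, of which the members took 0.0126% to 0.0211%, and to between 26306377 and 56308545 per fat library, of which they took 0.0233% to 0.0581%. Every level is given as CPM, the count of a gene relative to the TMM-adjusted depth of its library. A level of 3 counts, taken as not distinguished from 0, was worth 0.0462 to 0.154 CPM in muscle and 0.0474 to 0.123 CPM in fat, which covers counting error only. Variation between mice of a group, as edgeR's common dispersion, corresponded to a coefficient of variation of 22.7% in muscle and 63.5% in fat. Every listed gene reached 0.5 CPM in at least 3 muscle libraries or 4 fat libraries before the TMM adjustment, so a member low everywhere had no chance of being listed and 1 that was high in a single group did. All 3 groups of a tissue entered the same edgeR quasi-likelihood model. A call required a false discovery rate (FDR) of at most 0.05 together with a fold change (FC) of at least 1.5. In whole tissue, a change in the cells present and a change in RNA per cell cannot be told apart.

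The sequences upstream of 3 members that moved in muscle are given to show the reference promoters that belong to them. Tnfrsf12a, which encodes the TWEAK receptor Fn14, and Tnfsf10, which encodes the ligand TRAIL, had the largest rise and fall among the members. Tnfrsf1b encodes a TNF receptor without a death domain, and its promoter holds a STAT motif. Each sequence runs 5′ to 3′ on the strand of the gene and ends at the base before the first GENCODE exon of the gene. They are from RefSeq, build GRCm38.p6. The stretches are chr17:23677469-23677699 on the minus strand, chr3:27316827-27317027 on the plus strand and chr4:145246871-145247120 on the minus strand. Capitals mark the STAT motif.
Tnfrsf12a: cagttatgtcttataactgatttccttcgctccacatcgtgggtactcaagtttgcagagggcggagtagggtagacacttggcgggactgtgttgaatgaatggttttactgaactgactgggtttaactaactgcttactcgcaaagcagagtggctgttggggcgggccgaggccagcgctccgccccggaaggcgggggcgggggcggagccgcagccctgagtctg
Tnfsf10: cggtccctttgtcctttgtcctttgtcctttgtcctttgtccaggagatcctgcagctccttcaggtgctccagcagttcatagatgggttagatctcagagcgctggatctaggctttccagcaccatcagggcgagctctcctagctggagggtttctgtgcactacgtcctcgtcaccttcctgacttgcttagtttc
Tnfrsf1b: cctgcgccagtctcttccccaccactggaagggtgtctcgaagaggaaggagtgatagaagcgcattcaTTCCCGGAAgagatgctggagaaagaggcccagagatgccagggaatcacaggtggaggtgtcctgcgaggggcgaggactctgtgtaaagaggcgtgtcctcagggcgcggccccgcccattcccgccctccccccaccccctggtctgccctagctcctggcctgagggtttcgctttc

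RefSeq promoters were matched for 19 of the 26 members, 23 promoters in all, and the 250 bases before each RefSeq start were searched on both strands for 4 motifs. The STAT motif TTCNNNGAA was found in 5 of the 23, those of Tnfrsf1a, Tnfrsf1b and Tnfrsf18 and 1 start each of Tnfrsf9 and Tnfrsf25, and in 7.02% of 32851 promoters of the same length. In Tnfrsf1b it began 181 bases before the start. Of the STAT matches only that of Tnfrsf1b lies before the first GENCODE exon of its gene. The others lie after that exon begins. The AP-1 motif TGANTCA was in 4 of the 23, those of Tnfsf13 and Tnfsf14 and 1 start each of Tnfsf13b and Tnfrsf9, and in 6.75% of all promoters. Of the AP-1 matches only that of Tnfsf14 lies before the first GENCODE exon of its gene. The letters GGGANNTTC, searched as an NF-kB core, and the FoxO motif GTAAACA were in 0 of the 23 and in 3.23% and 3.17% of all. GGGANNTTC is a narrow form that does not cover all NF-kB sites. The window of 1 Tnfrsf9 start holds GGGGATTTCCC, which that form does not match, so the 0 does not show that NF-kB sites are absent. All matches are of letters in 1 window, and the STAT and AP-1 motifs found in members did not overlap each other.

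In quadriceps of KPC mice, 4 of the 14 members rose and 6 fell relative to no tumor. The receptors Tnfrsf12a, Tnfrsf23, Tnfrsf10b and Tnfrsf1b rose, and the ligands Tnfsf10 and Tnfsf12 and the receptors Tnfrsf25, Tnfrsf19, Tnfrsf14 and Tnfrsf22 fell. Of all genes in the table, 26.7% were called up and 29% down in this comparison, so that the members' shares of 28.6% and 42.9% stood beside a background in which most genes moved. The CPM ranges of KPC and no tumor did not overlap for 7 of the 14 members and for 65.3% of all genes. The members' median log2 FC was 0.09 and that of all genes was -0.03, while the median size of the log2 FC in either direction was 1.28 for the members and 0.75 for all genes.

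Tnfrsf12a (chromosome 17, 23675445 to 23677468), the receptor of TWEAK, was the member that rose most. Its level was 11.03, 11.4 and 10.1 CPM in the no tumor mice, 82.9, 57.0, 65.3 and 67.5 CPM in KPC, and 18.4, 13.1, 12.2 and 10.05 CPM in KPC IL6KO. All 4 KPC mice were above all others, whereas KPC IL6KO and no tumor overlapped. The log2 FC in KPC was 2.65 (standard error, SE, 0.20), a 6.28-fold rise with an edgeR FDR of 1.89e-06. Per kilobase of exon it stood at 5.61 CPM in no tumor, behind Tnfrsf1a at 11.7 and Tnfrsf21 at 7.80, and above all other members in KPC at 35.3 CPM, with Tnfrsf1a next at 15.7. It was close in no tumor to Tnfrsf19, at 5.34 CPM per kilobase, and the spread between mice does not separate these 2.

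Tnfsf12 (chromosome 11, 69686250 to 69695849), which encodes TWEAK, moved the other way. It was at 5.68, 5.62 and 6.30 CPM in no tumor, at 3.56, 3.61, 2.99 and 2.45 CPM in KPC and at 5.42, 6.26, 5.18 and 5.49 CPM in KPC IL6KO. KPC mice were all below both other groups. The log2 FC in KPC was -0.89 (SE 0.16, edgeR FDR 0.000451). Its exons share 731 bases with Tnfsfm13, a read-through gene on the same strand, and reads there cannot be assigned to 1 of them with certainty.

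**Figure D1:**
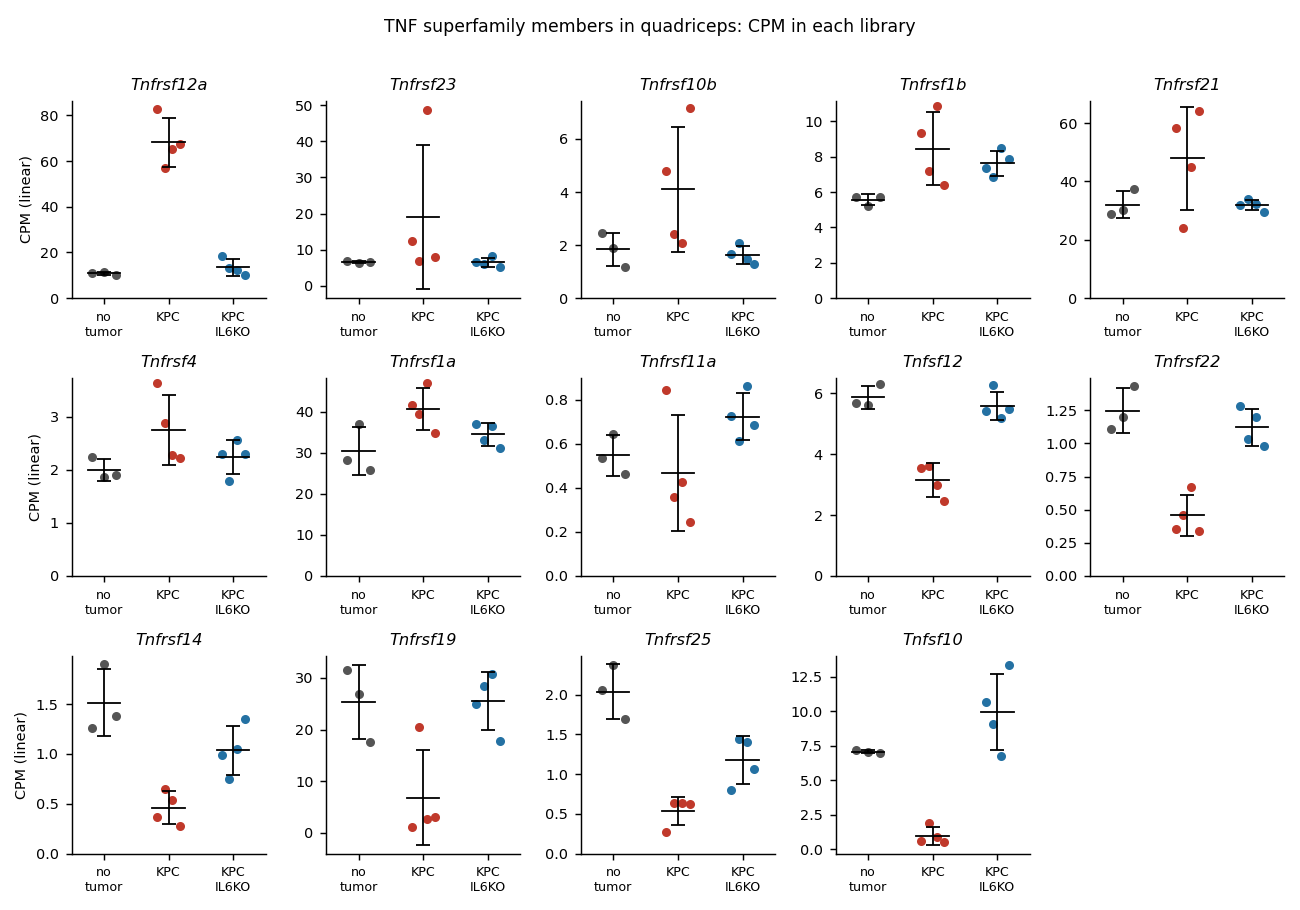
CPM of the 14 members in each quadriceps library on linear axes, by group (n = 3, 4 and 4 mice); points are mice, the horizontal line is the mean and the bar 1 SD. Tnfrsf12a is between 57.0 and 82.9 CPM in KPC and at most 18.4 CPM elsewhere, and Tnfsf10 is at most 1.87 CPM in KPC and at least 6.75 CPM elsewhere; single KPC mice stand apart for Tnfrsf23 and Tnfrsf19.

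Tnfsf10 (chromosome 3, 27317028 to 27342427) encodes TRAIL, a ligand that can trigger apoptosis, and fell most. It was at 7.17, 7.03 and 6.97 CPM in no tumor, at 0.585, 1.87, 0.884 and 0.489 CPM in KPC, and at 10.7, 9.08, 6.75 and 13.3 CPM in KPC IL6KO. The KPC levels lay far below both other groups, and the KPC IL6KO levels spanned those of no tumor. In KPC the log2 FC was -2.88 (SE 0.39, edgeR FDR 6e-05). Tnfrsf10b (chromosome 14, 69767472 to 69784411), the TRAIL receptor of the mouse, rose with a log2 FC of 1.13 (SE 0.42, edgeR FDR 0.0305). It was at 2.44, 1.90 and 1.18 CPM in no tumor, at 4.79, 2.41, 2.09 and 7.15 CPM in KPC, and at 1.65, 2.07, 1.48 and 1.29 CPM in KPC IL6KO. KPC 2 and KPC 3 lay within the no tumor range. The call in Tnfrsf10b was lost without no tumor 2 (edgeR FDR 0.0745), no tumor 3 (0.105), KPC 1 (0.0625) or KPC 4 (0.0903), and without KPC 4 its log2 FC was 0.72.

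Tnfrsf23 (chromosome 7, 143665809 to 143685872) and Tnfrsf22 (chromosome 7, 143634806 to 143649661) encode decoy receptors for TRAIL that lack a death domain, and they lie side by side. Tnfrsf23 was at 7.00, 6.39 and 6.71 CPM in no tumor, at 12.5, 6.90, 48.8 and 8.02 CPM in KPC, and at 6.56, 6.01, 8.18 and 5.14 CPM in KPC IL6KO. The library KPC 3 was far above the rest, and KPC 2 lay within the no tumor range. The log2 FC of Tnfrsf23 was 1.51 (SE 0.58, edgeR FDR 0.0375), and without KPC 3 it was 0.45 (FDR 0.106). Its call was also lost without no tumor 1 (FDR 0.08), no tumor 2 (0.0959) or no tumor 3 (0.0852).

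Tnfrsf22 fell. It was at 1.11, 1.20 and 1.43 CPM in no tumor, at 0.354, 0.462, 0.671 and 0.339 CPM in KPC, and at 1.28, 1.03, 1.20 and 0.978 CPM in KPC IL6KO. Every KPC mouse was below every other mouse. The log2 FC in KPC was -1.43 (SE 0.27, edgeR FDR 0.00068). Tnfrsf22 and Tnfrsf23 share 527 words of 75 bases, 12.6% and 13.1% of their transcript sequence. By the paper, only reads that mapped to 1 place were assigned, so reads wholly within the shared stretches may be missing from both counts.

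Among the receptors of TNF itself, Tnfrsf1b (chromosome 4, 145213463 to 145246870) rose modestly. It was at 5.75, 5.21 and 5.74 CPM in no tumor, at 9.35, 7.17, 10.9 and 6.40 CPM in KPC and at 7.37, 6.84, 8.48 and 7.89 CPM in KPC IL6KO. Both tumor groups lay above no tumor without overlap, and they overlapped each other. The log2 FC in KPC was 0.60 (SE 0.18, edgeR FDR 0.0118), an FC of 1.52, just above the threshold. Without no tumor 2, KPC 1 or KPC 3 the FC fell under 1.5, with log2 FC values of 0.56, 0.55 and 0.46. Tnfrsf1a (chromosome 6, 125349362 to 125362484), the death domain receptor of TNF, had an FC of 1.34 at an edgeR FDR of 0.0206 and was not called. It ranged from 25.9 to 36.997 CPM in no tumor, from 34.9 to 47.0 CPM in KPC and from 31.2 to 37.1 CPM in KPC IL6KO.

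Tnfrsf25 (chromosome 4, 152115934 to 152120119) encodes the death domain receptor DR3. It was at 2.06, 2.37 and 1.69 CPM in no tumor, at 0.277, 0.633, 0.638 and 0.621 CPM in KPC, and at 0.807, 1.44, 1.40 and 1.06 CPM in KPC IL6KO. The 3 groups did not overlap, with KPC IL6KO between the others. The log2 FC in KPC was -1.92 (SE 0.32, edgeR FDR 0.000241). Tnfrsf14 (chromosome 4, 154921933 to 154928563) encodes HVEM, the receptor of the ligand LIGHT. It was at 1.26, 1.90 and 1.38 CPM in no tumor, at 0.370, 0.650, 0.540 and 0.282 CPM in KPC, and at 0.985, 0.754, 1.05 and 1.35 CPM in KPC IL6KO. All KPC mice were below the other groups, and the log2 FC was -1.72 (SE 0.32, edgeR FDR 0.000561).

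Tnfrsf19 (chromosome 14, 60963875 to 61046490) encodes TROY, a receptor known from neural and hair follicle development. It was at 31.6, 26.8 and 17.5 CPM in no tumor, at 1.09, 20.4, 2.63 and 3.12 CPM in KPC, and at 24.9, 28.4, 30.8 and 17.8 CPM in KPC IL6KO. KPC 2 lay among the no tumor mice and the other 3 KPC mice far below. The log2 FC was -1.90 (SE 0.73, edgeR FDR 0.0369), and -3.48 without KPC 2. The call was lost without no tumor 1 (FDR 0.102), no tumor 2 (0.0762), KPC 1 (0.0571), KPC 3 (0.0838) or KPC 4 (0.0805).

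Tnfrsf21, Tnfrsf4 and Tnfrsf11a were not called in KPC relative to no tumor. Tnfrsf21, which encodes the death receptor DR6, ranged from 28.7 to 37.3 CPM in no tumor and from 24.2 to 64.1 CPM in KPC, at an edgeR FDR of 0.0636. Tnfrsf4, the costimulatory receptor OX40 of T cells, ranged from 1.86 to 2.23 CPM in no tumor and from 2.22 to 3.63 CPM in KPC. Tnfrsf11a, the osteoclast receptor RANK, was under 0.87 CPM in all 11 mice.

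In KPC IL6KO quadriceps 0 of the 14 members were called relative to no tumor by the edgeR quasi-likelihood test, and 0% of all genes were. At an unadjusted p under 0.05 there were 2 members, Tnfrsf25 and Tnfrsf1b, beside 6.91% of all genes. The CPM ranges did not overlap for the same 2 members and for 15.5% of all genes. The edgeR likelihood ratio test called 0 members and 0.74% of genes, and DESeq2 called 0 members and 0.725% of genes. For Tnfrsf25 the log2 FC was -0.80 (SE 0.31, edgeR FDR 0.58), and for Tnfrsf1b it was 0.46 (SE 0.18, edgeR FDR 0.595). The members' median log2 FC was -0.00075 and that of all genes 0.003.

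Between the tumor groups, KPC was higher than KPC IL6KO in 4 members and lower in 6, where 26.4% of all genes were called up and 27.3% down. The comparisons share the KPC libraries, so that their results are not independent. Tnfrsf12a had a log2 FC of 2.34 (SE 0.18, edgeR FDR 1.58e-06) and Tnfsf10 one of -3.38 (SE 0.38, edgeR FDR 1.51e-05), which is 10.4-fold lower in KPC. Also higher were Tnfrsf23 (log2 FC 1.56, SE 0.53, edgeR FDR 0.02), Tnfrsf10b (1.34, SE 0.38, FDR 0.00777) and Tnfrsf21 (0.59, SE 0.24, FDR 0.043).

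Lower in KPC than in KPC IL6KO were Tnfrsf19 (log2 FC -1.90, SE 0.70, edgeR FDR 0.0291), Tnfrsf22 (-1.29, SE 0.25, FDR 0.000782), Tnfrsf14 (-1.17, SE 0.30, FDR 0.00448), Tnfrsf25 (-1.12, SE 0.30, FDR 0.0055) and Tnfsf12 (-0.82, SE 0.15, FDR 0.000459). The CPM ranges did not overlap for 7 of the 14 members, Tnfrsf10b, Tnfrsf12a, Tnfrsf14, Tnfrsf22, Tnfrsf25, Tnfsf10 and Tnfsf12, and for 62% of all genes. Tnfrsf21 lost its call without any of 8 of the 11 libraries, with an edgeR FDR of up to 0.132 without KPC 4. Tnfrsf23 lost it without KPC 3 (log2 FC 0.50, FDR 0.058) or KPC IL6KO 4 (FDR 0.0521), and Tnfrsf19 without KPC 3 (0.072), KPC 4 (0.0684), KPC IL6KO 2 (0.0545) or KPC IL6KO 3 (0.0594).

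**Figure D2:**
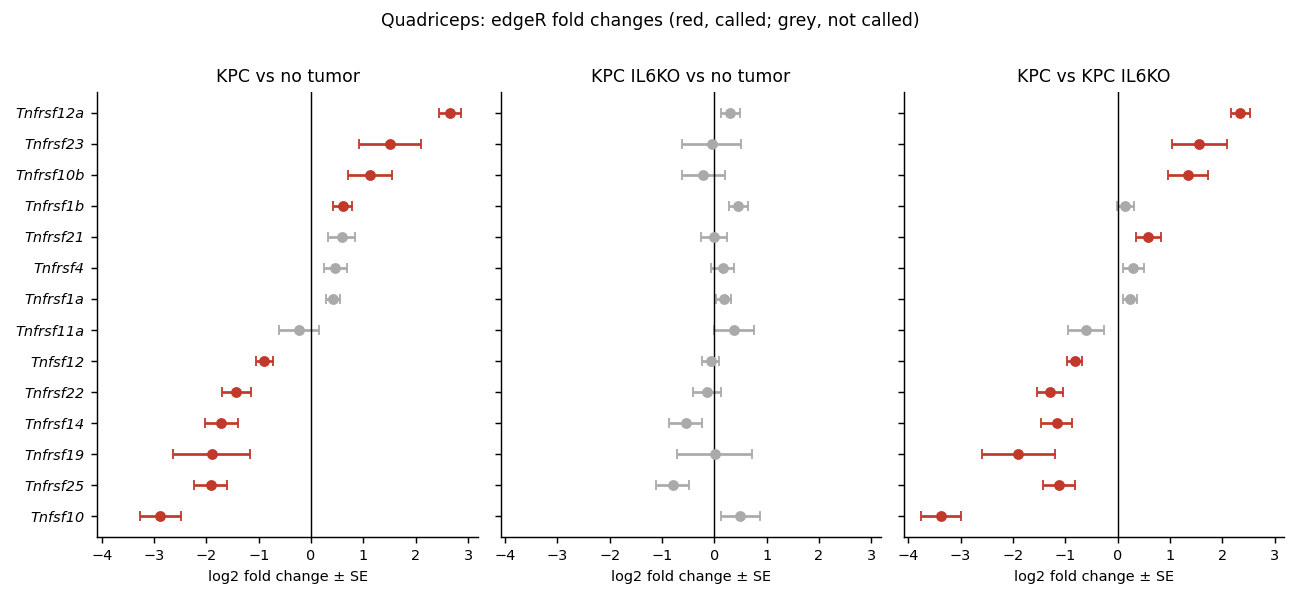
Log2 fold change of the 14 members in quadriceps in the 3 comparisons (horizontal axis, point with 1 standard error from the edgeR quasi-likelihood fit); red members were called and grey ones were not. The panels of KPC against no tumor and against KPC IL6KO each hold 10 called members, from 2.65 for Tnfrsf12a to -3.38 for Tnfsf10, and the panel of KPC IL6KO against no tumor holds 0.

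Adam17 encodes the protease that sheds TNF and several of its receptors from the cell surface. In quadriceps it was at 20.9, 20.7 and 17.8 CPM in no tumor, at 5.99, 10.4, 9.33 and 7.87 CPM in KPC and at 19.6, 19.6, 18.9 and 18.8 CPM in KPC IL6KO. It fell in KPC with a log2 FC of -1.24 (SE 0.16, edgeR FDR 4.44e-05) and was -1.20 lower than in KPC IL6KO (SE 0.15, edgeR FDR 3.45e-05). KPC IL6KO differed from no tumor by -0.04 (SE 0.16, edgeR FDR 1).

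Of the 14 superfamily members with other symbols, 8 were in the quadriceps table, of which 2 rose and 3 fell in KPC relative to no tumor, beside 26.7% and 29% of all genes. Eda2r, the receptor of ectodysplasin A2, and Ltbr, the lymphotoxin beta receptor, rose. Cd40, Eda, which encodes ectodysplasin A, and Relt fell. Eda2r had the largest rise of the list. It was at 6.39, 6.49 and 10.4 CPM in no tumor, at 128, 125, 188 and 33.1 CPM in KPC, and at 12.8, 9.13, 29.2 and 17.0 CPM in KPC IL6KO. All KPC mice were above all no tumor and KPC IL6KO mice. The log2 FC in KPC was 3.95 (SE 0.58, edgeR FDR 0.000113), while in KPC IL6KO it was 1.15 (SE 0.52, edgeR FDR 0.708).

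Relt, which encodes a further receptor of the superfamily, had the largest fall of the list. Its level was 19.8, 19.0 and 16.4 CPM in no tumor, 2.96, 2.57, 3.13 and 6.21 CPM in KPC, whereas KPC IL6KO was at 24.6, 23.4, 22.04 and 17.3 CPM. Its log2 FC in KPC was -2.32 (SE 0.26, edgeR FDR 1.87e-05), and all KPC mice were below the other groups. Fasl, Cd40lg, Cd70, Lta, Ltb and Edar were not among the quadriceps rows.

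Of the 28 genes that carry signals from the receptors to NF-kB, 9 rose and 7 fell in KPC quadriceps relative to no tumor, beside 26.7% and 29% of all genes, and their median log2 FC was 0.28. Map3k14, which encodes the NF-kB inducing kinase of the noncanonical pathway, rose most, from 11.1, 11.1 and 10.9 CPM in no tumor to 79.5, 30.9, 187 and 51.5 CPM in KPC. Its log2 FC was 2.99 (SE 0.50, edgeR FDR 0.000259), and it was at 9.28 to 10.5 CPM in KPC IL6KO. Chuk, Ikbkg, Nfkb2, Rel, Rela, Relb, Ripk1 and Traf6 rose as well. Traf4, an adaptor of the TRAF family, had the largest fall, from 5.14, 6.07 and 4.66 CPM to 1.83, 1.97, 1.36 and 1.52 CPM. For this gene the log2 FC was -1.67 (SE 0.17), and Cflar, Fadd, Map3k5, Tab1, Traf1 and Traf5 also fell.

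The library with the highest Tnfrsf23, KPC 3, was also highest among the KPC mice for Map3k14, Eda2r, Nfkb2 and Relb, a set looked at after its values were seen. Nfkb2 was at 25.8, 19.6, 78.6 and 14.1 CPM in the 4 KPC mice and at 13.2 to 14.7 CPM in no tumor. Relb, its partner in the noncanonical dimer, was at 24.8, 15.5, 58.1 and 9.30 CPM in KPC and at 8.42 to 9.01 CPM in no tumor. KPC 4 was lowest of the KPC mice for Eda2r, Nfkb2 and Relb and highest for Tnfrsf10b.

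Among 15 inhibitors and feedback genes of NF-kB, 13 were in the quadriceps table, and 10 rose and 2 fell in KPC relative to no tumor, beside the same shares of all genes, with a median log2 FC of 0.96. Nfkbib, which encodes an inhibitor that holds NF-kB in the cytoplasm, rose most, from 30.3, 32.0 and 32.8 CPM to 162, 79.8, 208 and 109 CPM. Its log2 FC was 2.14 (SE 0.27, edgeR FDR 3.65e-05). Tnfaip3, which encodes the ubiquitin editing enzyme A20, fell most, from 4.19, 5.70 and 4.41 CPM to 3.63, 1.76, 3.75 and 2.18 CPM, with a log2 FC of -0.75 (SE 0.28, edgeR FDR 0.0338). Nfkbie fell too, and with only KPC and no tumor in the model 0 of the 13 were called down, while Cyld, Nfkbia, Nfkbiz, Otud7b, Otulin, Tank, Tnip1, Tnip2 and Zc3h12a rose. In KPC IL6KO relative to no tumor 0 genes of the 3 lists were called in quadriceps by the edgeR quasi-likelihood test, beside 0% of all genes. An unadjusted p under 0.05 was found for 2, 1 and 3 genes of the lists, beside 6.91% of all genes. The likelihood ratio test called 0 of them in KPC IL6KO quadriceps, and DESeq2 called 1, an inhibitor or feedback gene.

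**Figure D3:**
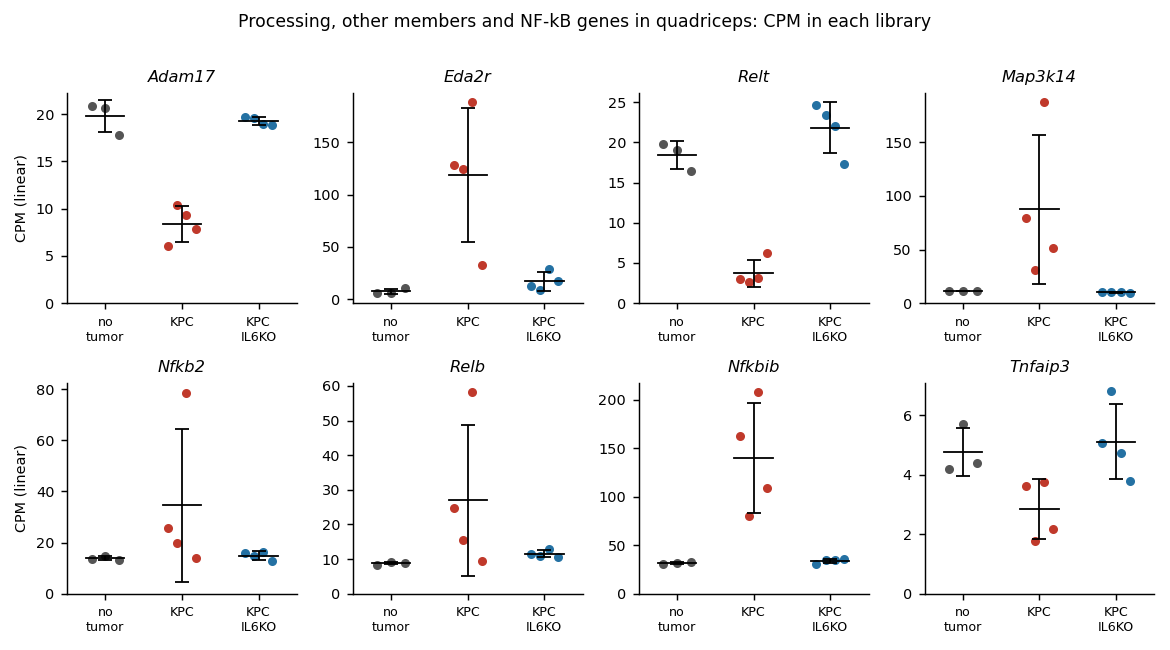
CPM in each quadriceps library on linear axes, by group, for the protease gene Adam17, the receptors Eda2r and Relt, and the NF-kB genes Map3k14, Nfkb2, Relb, Nfkbib and Tnfaip3; points are mice, the horizontal line is the mean and the bar 1 SD. Adam17 is between 5.99 and 10.4 CPM in KPC and between 17.8 and 20.9 CPM in the other groups, and KPC 3 is the highest mouse for Eda2r, Map3k14, Nfkb2, Relb and Nfkbib.

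Markers of other cells in quadriceps were set beside these values. The summed level of 7 myofiber markers was 147151 to 182480 CPM in no tumor, 113304 to 131097 in KPC and 167853 to 183733 in KPC IL6KO, the most abundant of the marker lists in every library of this tissue. The 6 fibroblast markers were at 1215 to 1333 CPM in no tumor, 174 to 290 in KPC and 628 to 991 in KPC IL6KO, and 6 of 6 were called down in KPC. The 5 of 8 neutrophil markers listed summed to 2.98 to 4.51 CPM in no tumor, 5.65 to 22.6 CPM in KPC and 4.55 to 8.04 CPM in KPC IL6KO, with Cxcr2, Mmp8 and Camp absent. The 8 macrophage markers overlapped between groups, at 93.3 to 150 CPM in no tumor and 79.9 to 172 CPM in KPC, as did the 7 endothelial markers, at 226 to 310 and 203 to 327 CPM, and the 7 adipocyte markers, at 349 to 1567 and 152 to 762 CPM. The summed level of the 4 of 5 plasma cell markers listed, with Jchain absent, did not overlap between KPC and the other groups. It was at 62.9 to 71.9 CPM in no tumor, 139 to 178 in KPC and 57.9 to 68.3 in KPC IL6KO. In KPC relative to no tumor 2 plasma cell markers were called up and 1 down, 4 neutrophil markers up and 1 down, 2 macrophage markers up and 2 down, and 0 myofiber markers up and 2 down. The endothelial and the adipocyte list each had 0 markers called up and 2 down. None of 8 T cell markers and 1 of 7 B cell markers were listed in quadriceps, with 0 of 10 epididymis, 0 of 10 pancreas or stomach and 1 of 5 mesothelial markers. Whether these marker levels reflect the number of such cells, and their part in the changes of the members, was not tested.

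In fat, 0 of the 26 members were called in any of the 3 comparisons by the edgeR quasi-likelihood test, and 0% of all genes were. The CPM ranges of the 2 groups did not overlap for 12 of 26 members, or 46.2%, beside 10.9% of all genes, and 10 members had an unadjusted p under 0.05, or 38.5%, beside 12.2% of all genes. The smallest FDR among the members was 0.234. The likelihood ratio test called 3 members, Tnfrsf23, Tnfrsf9 and Tnfsf9, and 2.43% of all genes. DESeq2 called the same 3 members and 3.45% of all genes, and the newer edgeR quasi-likelihood fit called 0 members and 0.0943% of all genes. The members' median log2 FC was 0.66 and that of all genes -0.10. The listing of members through tumor mice bears on the former too.

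The fat libraries differed in epididymis transcripts. The 10 epididymis markers summed to 88842, 13504, 75324 and 19756 CPM in no tumor, to 43196, 68355, 46983 and 44719 CPM in KPC, and to 755, 93271, 16371 and 10305 CPM in KPC IL6KO. KPC IL6KO 5 was far below all other fat libraries in this sum. Gpx5, an abundant transcript of the epididymis, was at 21347 to 40388 CPM in all 4 KPC mice, at 34255 and 39292 CPM in no tumor 7 and no tumor 5, and at 54957 CPM in KPC IL6KO 6. It was at 4.69 to 85.8 CPM in the other fat libraries. In the fit with a score of 10 epididymis genes as a covariate, 5 members were called up in KPC, Tnfrsf22, Tnfrsf23, Tnfrsf9, Tnfsf11 and Tnfsf9, beside 3.78% of all genes called in either direction. With only the libraries over 1000 CPM of Gpx5, 4 were called up, Tnfrsf22, Tnfrsf23, Tnfrsf9 and Tnfsf9, beside 2.33% of all genes. When KPC IL6KO was left out of the fit, Tnfrsf23, Tnfrsf9 and Tnfsf9 were called, beside 1.04% of all genes.

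Tnfrsf9, a costimulatory receptor of activated T cells and NK cells, and its ligand Tnfsf9 were among the members with the smallest unadjusted p in fat, and neither was called. Tnfrsf9 (chromosome 4, 150914562 to 150946102) was at 0.164, 0.623, 0.139 and 0.126 CPM in no tumor, at 3.56, 3.24, 2.53 and 3.97 CPM in KPC, and at 4.32, 0.206, 0.773 and 9.29 CPM in KPC IL6KO. All KPC mice were above all no tumor mice, and KPC IL6KO 6 lay among the latter. The log2 FC of Tnfrsf9 was 3.66 in KPC (SE 1.04, edgeR FDR 0.243) and 3.80 in KPC IL6KO (SE 1.05, edgeR FDR 0.394). Without KPC IL6KO 8 the latter was 2.75, and without no tumor 6 the values of Tnfrsf9 were 4.51 and 4.65.

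Tnfsf9 (chromosome 17, 57105325 to 57107757) was at 0.123, 0.311, 0.139 and 0.174 CPM in no tumor, at 2.51, 1.72, 1.11 and 2.96 CPM in KPC, and at 7.22, 0.0686, 0.981 and 3.85 CPM in KPC IL6KO. KPC and no tumor did not overlap, and KPC IL6KO 6 and no tumor 5 were both at no more than 3 counts. Its log2 FC was 3.45 in KPC (SE 1.04, edgeR FDR 0.255) and 4.00 in KPC IL6KO (SE 1.06, edgeR FDR 0.385), and the latter of Tnfsf9 was 3.11 without KPC IL6KO 5. Its exons share 192 bases with Gm11110 on the other strand.

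Tnfrsf23 was at 2.25, 4.01, 0.814 and 1.39 CPM in no tumor fat, at 29.1, 13.1, 12.8 and 30.7 CPM in KPC, and at 27.3, 1.23, 3.77 and 20.8 CPM in KPC IL6KO. The KPC mice lay above no tumor without overlap, while KPC IL6KO 6 and KPC IL6KO 7 lay within the no tumor range. In the fit the log2 FC was 3.34 in KPC (SE 0.89, edgeR FDR 0.234), the smallest FDR of any member in fat, and 2.65 in KPC IL6KO (SE 0.87, edgeR FDR 0.412). Its neighbour Tnfrsf22 was at 0.655, 2.46, 0.535 and 1.52 CPM in no tumor, at 4.76, 4.15, 3.07 and 3.25 CPM in KPC and at 11.1, 0.823, 2.70 and 5.14 CPM in KPC IL6KO. KPC again lay above no tumor. In KPC IL6KO the log2 FC of Tnfrsf22 was 1.93 (SE 0.73, edgeR FDR 0.463), and that of Tnfrsf26, a further member of this cluster on chromosome 7, was 2.20 (SE 0.91, edgeR FDR 0.499). Tnfrsf26 was at 0.205, 1.14, 0.325 and 0.411 CPM in no tumor, at 0.934, 2.43, 1.18 and 2.34 CPM in KPC and at 2.41, 0.240, 0.832 and 6.14 CPM in KPC IL6KO, the highest and the lowest of which lay far apart. Leaving out KPC IL6KO 8 gave Tnfrsf26 a KPC IL6KO log2 FC of 1.16, and leaving out no tumor 6 gave 2.91. Without KPC IL6KO 5, that of Tnfrsf22 was 1.16 and that of Tnfrsf23 was 2.03.

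Tnfsf11 encodes RANKL and Tnfrsf11b encodes osteoprotegerin, the soluble decoy that binds it. Tnfsf11 (chromosome 14, 78277445 to 78308043) was at 0.0410, 0.381, 0.0232 and 0.158 CPM in no tumor and at 3.59, 2.38, 0.775 and 0.520 CPM in KPC. No tumor 5 and no tumor 7 were at no more than 3 counts. KPC IL6KO was at 0.736, 0, 0.119 and 1.59 CPM, with 0 counts in KPC IL6KO 6, which allows up to 0.103 CPM in that library. The log2 FC of Tnfsf11 in KPC was 3.57 (SE 1.35, edgeR FDR 0.338), and 4.48 without no tumor 6. Tnfrsf11b (chromosome 15, 54250619 to 54278484) was at 1.07 to 3.48 CPM in no tumor, at 3.27 to 12.6 CPM in KPC and at 2.06 to 14.2 CPM in KPC IL6KO, with a log2 FC of 1.59 in KPC (SE 0.63, edgeR FDR 0.357) and 1.96 in KPC IL6KO (SE 0.63, edgeR FDR 0.407).

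Tnfsf14 (chromosome 17, 57189492 to 57194177) encodes LIGHT, the ligand of HVEM and of the lymphotoxin beta receptor. It was at 0.327, 0.346, 0.139 and 0.411 CPM in no tumor, at 1.87, 1.60, 0.674 and 1.66 CPM in KPC and at 2.04, 0.377, 0.773 and 7.27 CPM in KPC IL6KO. The KPC mice lay above no tumor, and KPC IL6KO 6 did not. The log2 FC of Tnfsf14 was 2.23 in KPC (SE 0.85, edgeR FDR 0.339) and 3.08 in KPC IL6KO (SE 0.87, edgeR FDR 0.394), and the latter was 1.79 without KPC IL6KO 8.

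Tnfrsf4 and its ligand Tnfsf4, the OX40 pair, were low in fat. Tnfrsf4 (chromosome 4, 156013843 to 156016612) was at 0.980 to 1.35 CPM in no tumor, at 1.496 to 2.37 CPM in KPC and at 1.69 to 2.06 CPM in KPC IL6KO, and its log2 FC in KPC was 0.74 (SE 0.33, edgeR FDR 0.405). It was the member whose KPC IL6KO range did not overlap with no tumor. Tnfsf4 (chromosome 1, 161395409 to 161418410) was at 0, 0, 0.0465 and 0.174 CPM in no tumor, where 3 of 4 libraries were at no more than 3 counts, and at 0.350, 0.229, 0.505 and 1.59 CPM in KPC. Its log2 FC was 3.35 (SE 1.33, edgeR FDR 0.351), a value that rests on counts near 0 and was 4.91 without no tumor 8 and 2.47 without KPC 8.

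Tnfrsf12a, the largest riser of muscle, was at 17.2, 6.78, 11.9 and 6.04 CPM in no tumor fat, at 36.5, 22.3, 22.5 and 43.0 CPM in KPC and at 97.8, 14.7, 10.9 and 36.99 CPM in KPC IL6KO. KPC lay above no tumor without overlap, and in KPC IL6KO 2 of 4 mice lay within the no tumor range. Its log2 FC was 1.57 in KPC (SE 0.64, edgeR FDR 0.367) and 1.94 in KPC IL6KO (SE 0.65, edgeR FDR 0.414), and without KPC IL6KO 5 the latter of Tnfrsf12a was 1.00. Tnfrsf10b was at 5.79 to 7.85 CPM in no tumor, at 10.3 to 19.6 CPM in KPC and at 7.06 to 34.6 CPM in KPC IL6KO. On the log2 scale the FC was 1.14 in KPC (SE 0.48, edgeR FDR 0.378) and 1.21 in KPC IL6KO (SE 0.48, edgeR FDR 0.488), and without KPC IL6KO 5, the highest mouse, the latter was 0.44.

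**Figure D4:**
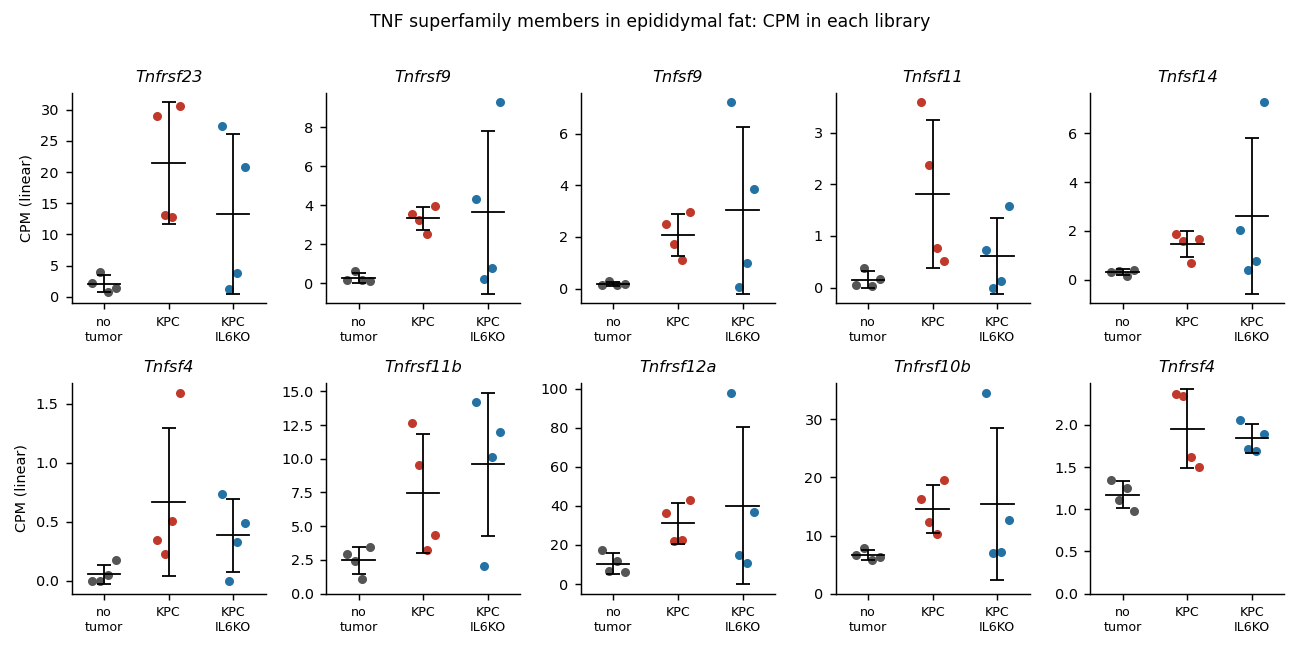
CPM in each epididymal fat library on linear axes, by group (4 mice each), for the 10 members with an unadjusted p under 0.05 in KPC against no tumor, ordered by that p; points are mice, the horizontal line is the mean and the bar 1 SD. KPC lies above no tumor without overlap for 9 of them, the exception being Tnfrsf11b, and the KPC IL6KO mice reach into the no tumor range for 9 of them, the exception being Tnfrsf4. The 10 were picked by the same comparison of KPC and no tumor, which favors such separation. Over all genes these ranges did not overlap for 10.9%.

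The remaining members of fat overlapped between KPC and no tumor, with the exception of Tnfrsf22, Tnfrsf25 and Tnfsf13. Tnfrsf25 measured 3.00 to 4.22 CPM in no tumor and at 1.84 to 2.98 CPM in KPC. Tnfsf13, which encodes the B cell ligand APRIL, measured 0.837 to 1.99 CPM in no tumor and at 2.06 to 2.86 CPM in KPC, and its exons overlap those of Tnfsfm13 and Tnfsf13os. Per kilobase of exon, Tnfrsf1a was the highest member of fat in every group, at 39.8 CPM in no tumor, 59.9 in KPC and 62.2 in KPC IL6KO. Tnfrsf1b was at 10.8, 15.8 and 18.6 CPM per kilobase and Tnfrsf21 at 12.8, 10.4 and 11.5 CPM per kilobase in the same order of groups.

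Tnfrsf13c, the receptor of the B cell ligand BAFF, measured 0.409 to 1.14 CPM in no tumor and at most 0.730 CPM in the other groups. Tnfsf13b, which encodes BAFF, measured 0.767 to 4.84 CPM in no tumor and at 1.81 to 3.64 CPM in KPC. Tnfrsf18, the receptor GITR of regulatory T cells, measured 0.537 to 2.66 CPM in no tumor and at 0.701 to 1.37 CPM in KPC. Tnfsf15, the ligand of DR3, measured 0.418 to 0.664 CPM in no tumor and at 0 to 1.20 CPM in KPC. Tnfrsf11a, Tnfrsf14, Tnfrsf19, Tnfrsf26, Tnfsf10 and Tnfsf12 overlapped as well.

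In KPC IL6KO fat relative to no tumor, 9 members had an unadjusted p under 0.05, or 34.6%, beside 9.34% of all genes, and all 9 were higher in KPC IL6KO. They include Tnfsf9 and Tnfsf14, which were listed through their levels in tumor mice, so no conclusion is drawn from this share. The smallest FDR among the members was 0.385. The ranges did not overlap for 1 member, or 3.85%, beside 2.01% of all genes. The likelihood ratio test called Tnfrsf9, Tnfsf14 and Tnfsf9 and 1.23% of all genes, DESeq2 called the same 3 and 1.68% of all genes, and the newer quasi-likelihood fit called 0 members and 0% of genes. KPC and KPC IL6KO share the no tumor mice as their reference.

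Between KPC and KPC IL6KO fat, 1 member, Tnfrsf14, had an unadjusted p under 0.05, or 3.85%, beside 6.26% of all genes. Tnfrsf14 was at 1.61, 3.41, 2.53 and 2.41 CPM in KPC and at 5.47, 2.95, 7.04 and 9.17 CPM in KPC IL6KO, with a log2 FC of -1.31 (SE 0.46, edgeR FDR 0.678). The 2 groups overlapped through KPC IL6KO 6. The ranges overlapped for all 26 members, while 4.33% of all genes did not overlap. The likelihood ratio test called 0 members and 0.389% of genes, DESeq2 0 members and 0.737% and the newer quasi-likelihood fit 0 members and 0.0059%.

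Of the 3 pathway lists, 0 genes were called in fat in any comparison by the edgeR quasi-likelihood test, beside 0% of all genes. In KPC relative to no tumor 2 of 10 other superfamily members, 5 of 28 signalling genes and 4 of 15 inhibitors and feedback genes had an unadjusted p under 0.05, beside 12.2% of all genes. The likelihood ratio test called 1 other member down, 1 signalling gene up and 1 inhibitor or feedback gene up in this comparison, and DESeq2 called 1 down, 2 up and 3 up. In KPC IL6KO the counts at an unadjusted p under 0.05 were 4, 8 and 7, beside 9.34% of all genes. Adam17 was at 47.3 ± 8.32 CPM in no tumor, 59.3 ± 5.97 in KPC and 65.6 ± 12.5 in KPC IL6KO (SD, n = 4), with a log2 FC of 0.33 in KPC (SE 0.17, edgeR FDR 0.488). Eda2r was at 2.15 ± 0.56 CPM in no tumor and 3.64 ± 1.31 CPM in KPC (SD, n = 4), with a log2 FC of 0.76 (SE 0.40, edgeR FDR 0.487).

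In fat, 0 markers of any cell type list were called in any of the 3 comparisons by the edgeR quasi-likelihood test, beside 0% of all genes. Some summed levels were apart between KPC and no tumor. The 8 macrophage markers summed to 122 to 402 CPM in no tumor, 501 to 927 CPM in KPC and 214 to 1750 CPM in KPC IL6KO, with KPC IL6KO 6 the lowest of the latter, also for neutrophil and pancreas or stomach markers. The 7 of 8 neutrophil markers listed summed to 5.21 to 14.8 CPM in no tumor, 29.98 to 65.8 CPM in KPC and 8.85 to 84.1 CPM in KPC IL6KO, with Camp absent. The 6 of 10 pancreas or stomach markers listed were at 9.30 to 29.6 CPM in no tumor, 43.7 to 234 in KPC and 8.54 to 212 in KPC IL6KO, and the acinar genes Cela2a, Prss2, Cpa1 and Pnlip were absent. The 7 of 8 T cell markers listed, without Trac, were at 6.44 to 19.7 CPM in no tumor and 3.77 to 6.502 in KPC, and the 7 adipocyte markers at 1055 to 19379 and 1707 to 8844 CPM. The 6 fibroblast markers were at 1079 to 3356 CPM and 2753 to 5782 CPM, and the 5 mesothelial markers at 112 to 294 and 244 to 651 CPM. Markers of plasma cells (5), endothelium (7) and B cells (6 of 7 listed) overlapped between KPC and no tumor. The 7 myofiber markers were at 8.86 to 272 CPM in no tumor, 2.16 to 5.16 in KPC and 93.7 to 2417 in KPC IL6KO. The part of these cells in the levels of the members was not tested.

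Whether the KPC effect differed between muscle and fat was tested with all 23 libraries in 1 edgeR quasi-likelihood fit. Of the 14 members in both tables, 4 differed in KPC relative to no tumor, beside 36.9% of the 12599 genes in both tables, and in KPC IL6KO 0 members and 0% of genes did. Tnfrsf22 differed most, with a log2 FC of -1.43 in muscle and 1.56 in fat and a difference of -3.09 in the joint fit (SE 0.81, edgeR FDR 0.00533). Its fat value was not called by itself (SE 0.72, edgeR FDR 0.421). Tnfsf10 had -2.88 in muscle and -0.34 in fat, a difference of -2.64 (SE 0.65, edgeR FDR 0.00344). For Tnfrsf25 the difference was -1.47 (SE 0.45, edgeR FDR 0.015), and for Tnfrsf14 it was -1.48 (SE 0.56, edgeR FDR 0.042). The call in Tnfrsf14 was lost without any 1 of 13 of the 23 libraries, with FDR values of up to 0.114 without muscle no tumor 2.

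Tnfrsf12a had 2.65 in muscle and 1.57 in fat, and the difference of 0.96 was not called (SE 0.70, edgeR FDR 0.292). Tnfrsf23 had 1.51 and 3.34, with a difference of -1.97 (SE 1.05, edgeR FDR 0.146). Tnfrsf10b and Tnfrsf1b had differences of -0.11 and -0.08, with standard errors of 0.65 and 0.41. Tissue cannot be told apart here from the set of samples and the library preparation, which differed between muscle and fat. Nor can it be told apart from any difference in RNA extraction or sequencing run, which the paper does not describe.

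**Figure D5:**
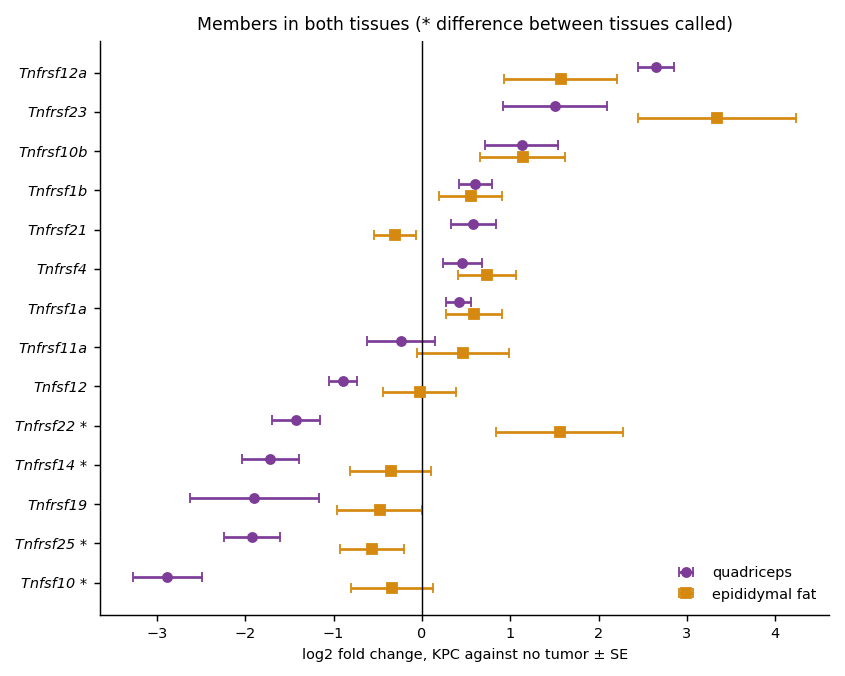
Log2 fold change of KPC against no tumor for the 14 members in both tissues (horizontal axis, with 1 standard error), circles for quadriceps and squares for epididymal fat; stars mark the 4 members whose difference between tissues was called in the joint edgeR fit. Tnfrsf22 is at -1.43 in quadriceps and 1.56 in fat, and Tnfrsf10b is at 1.13 and 1.14. The difference was called for 36.9% of the 12599 genes in both tables. No member was called in fat by itself, beside 0% of all genes.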

How the data were processed

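RNA of 11 quadriceps and 12 epididymal fat libraries was sequenced, and groups were taken from the sample titles. The authors aligned reads with STAR to mm10 and deposited raw counts per gene from featureCounts 1.5.1, 1 table per tissue, already without genes of low counts. The paper describes a separate library preparation for each tissue, and does not say whether RNA extraction or sequencing runs were separate. The paper and the sample records name different library kits, and the strand setting of the counting is not given in the sources used here. Counts were normalized by TMM and tested with edgeR 4.0.16 (R 4.3.3) by quasi-likelihood over all genes, and filterByExpr removed 0 genes. DESeq2 1.42.0 and other settings were alternatives. Figures were drawn with matplotlib 3.10.9. Positions and exon lengths are from GENCODE M21, build GRCm38.p6, matched by symbol for all 26 members.

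The members and lists were chosen with earlier results of these data known. Members were named with a log2 FC where called, or, in a comparison without calls, at an unadjusted p under 0.05. List genes named with values were those with the largest rise and fall, Adam17 and Eda2r, and Nfkb2 and Relb were added after their values were seen. No 2 libraries of a group were duplicates, with a chi-square per degree of freedom of at least 28.9 in muscle and 85.6 in fat.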

Additional observations from a re-analysis of the deposited data

Results flagged for a closer look

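In 106 groups of 4 mice, 1 for each member, tissue and group of that size, 6 had a mouse apart from the others by Dixon's test at 95%, where chance alone gives about 1 in 20. In quadriceps these were Tnfrsf19 in KPC 2, at 20.4 CPM where the other KPC mice were at 1.09 to 3.12, Tnfrsf23 in KPC 3, at 48.8 CPM where they were at 6.90 to 12.5, and Tnfrsf25 in KPC 1, at 0.277 CPM where they were at 0.621 to 0.638. In fat they were Tnfrsf9 in no tumor 6, at 0.623 CPM where the other no tumor mice were at 0.126 to 0.164, Tnfsf13 in KPC IL6KO 8, at 5.01 CPM where the others were at 1.47 to 1.99, and Tnfsf15 in KPC 5, at 0 CPM where the others were at 1.01 to 1.20.

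The effect of KPC relative to no tumor differed between quadriceps and fat for 4 of 14 members in the joint edgeR fit. That is 28.6%, beside 36.9% of the 12599 genes in both tables. The call in Tnfrsf14 was lost in some of the fits that left out a single library. The log2 FC of quadriceps minus that of fat was -3.09 for Tnfrsf22, -2.64 for Tnfsf10, -1.48 for Tnfrsf14 and -1.47 for Tnfrsf25.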

How the results depend on the processing

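Of 937 recomputed log2 FC values of named members, 864 kept their direction and side of the threshold, 51 lost the call, 22 gained it and 0 reversed. In quadriceps KPC relative to no tumor, with only the 2 groups compared in the fit, Tnfrsf10b (edgeR FDR 0.0582), Tnfrsf23 (0.0738) and Tnfrsf19 (0.0835) lost their calls. In that fit 2 members were called up and 0 inhibitors or feedback genes down. The latter count was 0 with the replicate block and 1 with DESeq2, which also called 1 such gene up in KPC IL6KO. In KPC relative to KPC IL6KO, 1 other superfamily member was called up with only these groups, and 1 with the replicate block. Same-numbered libraries of different groups had correlated deviations of -0.15 to 0.26 in quadriceps and -0.54 to 0.65 in fat, and they share only a number. With the replicate block, Tnfrsf10b (KPC relative to no tumor, log2 FC 0.94, FDR 0.0646) and Tnfrsf21 (KPC relative to KPC IL6KO, 0.52, FDR 0.0823) lost their calls. Leaving out single libraries gave 2 to 5 members up in KPC relative to no tumor, 2 to 4 in KPC relative to KPC IL6KO, 0 to 2 inhibitors or feedback genes down, and 1 to 3 other members up in the latter comparison.

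In fat KPC relative to no tumor, members called up were 3 with DESeq2, 3 with the likelihood ratio test, 3 with only the 2 groups, 5 with the epididymis covariate and 4 with only libraries high in Gpx5. Signalling genes called up were 2, 1, 1, 1 and 1 and inhibitors or feedback genes 3, 1, 2, 2 and 1 in the same order. DESeq2 and the likelihood ratio test each called 1 other member down. In KPC IL6KO relative to no tumor, DESeq2 called 3 members, 2 signalling genes and 2 inhibitors or feedback genes up, and the likelihood ratio test 3 members and 1 inhibitor or feedback gene. Leaving out single libraries gave 0 to 1 inhibitors or feedback genes up there, the 1 being without KPC IL6KO 6. The cause of these changes was not tested. The spread between fat mice, and members at under 1 CPM, limit what these libraries can show.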
